A study of Bos taurus with 15 samples.

Results

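In bovine fetal fibroblasts (BFFs), 14 genes were expressed at a higher level after transfection with wild type (WT) ARGFX or with LEUTX, and at about the control level after transfection with a mutant ARGFX that lacks the homeodomain. They were chosen by their own measured means. Expression was scaled as CPM, the expected count of a gene divided by the summed expected count of its sample and multiplied by 1000000. A gene was taken where its control mean was at least 5 CPM, its WT ARGFX and LEUTX means were each at least 1.5 times the control mean, and its mutant ARGFX mean was at most 1.2 times the control mean. Of 21665 genes in the table, 10258 reached the control level and 14 met all limits. The count was 23 when 1 WT ARGFX sample that stood apart was left out, 13 of them among the 14, and also 23 on TMM-scaled library sizes, with all 14 among them. PXDN, SMTN and PLD2, which the choice leaves out by name, were above the mutant limit in any case, at 1.48, 1.45 and 1.57 times control.

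The cells were a primary culture from the torso skin of a single Bos taurus fetus aged 6 months. The study found them homozygous for the WT ARGFX allele. At passage 4 they were electroporated with a plasmid carrying bovine WT ARGFX (4 samples), mutant ARGFX (3 samples) or bovine LEUTX (4 samples), or with the empty pSF-CMV-Puro-COOH plasmid (4 control samples). The authors had excluded a further mutant ARGFX sample because it grouped with the WT ARGFX samples in a principal component analysis. It was not analysed here, and every mutant level below rests on a group from which a sample resembling WT ARGFX had been removed. Puromycin selection was common to all groups, as was RNA extraction after 72 h. The inserts carry a C-terminal FLAG tag and are driven by a constitutive promoter, so the levels are not those of an embryo. The mutant is a natural cattle allele with a frameshift deletion that stops the protein before the homeodomain.

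ARGFX and LEUTX belong to the ETCHbox genes, PRD-class homeobox genes that arose from CRX in placental mammals and are active in the preimplantation embryo. The homeodomain is the part of such a protein that binds DNA. Fibroblasts do not normally express these genes, and a transfected culture therefore shows which loci respond to them, directly or indirectly.

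The transfected genes followed the labels. ARGFX was at 3424 ± 720 CPM (SD, n = 4) with WT ARGFX and at 5462 ± 1592 CPM (SD, n = 3) with mutant ARGFX, and LEUTX was at 1480 ± 203 CPM (SD, n = 4) in its own samples. Each control sample had at most 1 expected count of either gene. The mean ARGFX level was thus higher in the mutant than in the WT samples, while the samples overlapped, at 3631 to 6514 CPM against 2866 to 4477 CPM. The total expected count per sample was between 25947911 and 41554242, and the lowest count of any of the 14 genes in a control sample was 135.

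Symbols were known only for genes in the study's own sheet of genes upregulated by WT ARGFX, and 7 of the 14 have one there: SERPINE2, PRR5L, MB21D2, IL1RL1, ALDH1A1, ASPA and PDLIM2. For the other 7 genes no symbol was paired. The 2 of these with the highest LEUTX fold are given by identifier, ENSBTAG00000001244.6 and ENSBTAG00000001497.6, and the remaining 5 by their range.

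Fibroblast markers were abundant. COL1A1, the main chain of type I collagen, was at 12428 ± 1827 CPM (SD, n = 4) in the control samples. In these samples it was the most abundant of the 5 fibroblast markers, of 10 listed, that could be paired with an identifier. With mutant ARGFX and LEUTX the most abundant was COL1A2, at means of 17085 and 16572 CPM. Summed over these 5, the median sample was at 30505 CPM in controls, 56582 CPM with WT ARGFX, 42391 CPM with mutant ARGFX and 40630 CPM with LEUTX. The 5 markers did not move alike with LEUTX, at means of 2.73 times control for FN1, 1.35 for COL1A2, 1.17 for COL1A1, 0.73 for FBN1 and 0.61 for COL3A1. Of 5 smooth muscle markers, ACTG2 and LMOD1 could be paired, and neither was at 0 in any sample. Their sum was at a median of 311 CPM in controls, 517 CPM with WT ARGFX, 447 CPM with mutant ARGFX and 1962 CPM with LEUTX, nearly all of it ACTG2. The hepatocyte marker APOA1 had a mean of 0.53 CPM in controls, 9.86 CPM with WT ARGFX, 1.01 CPM with mutant ARGFX and 6.51 CPM with LEUTX. The endothelial marker ETV2 had means of 2.30, 3.85, 3.35 and 4.17 CPM in the same order. No listed epithelial or blood marker could be paired. Since symbols were known only for genes upregulated by WT ARGFX, a marker could be paired only if WT ARGFX raised it, and the rise of these markers with WT ARGFX was fixed by that. Their part in the results was not tested. In RNA from a whole culture, more RNA of a gene per cell and more cells that express it cannot be told apart.

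A sample stood apart in the WT ARGFX group. In a pair of WT ARGFX columns the header is the same, so they carry no replicate number and are called A and B here. B deviated from its group mean by a root mean square of 0.36 on the log2 scale over the tested genes, against 0.14 to 0.16 in the other WT ARGFX samples. Control replicates 2 and 3 followed at 0.26 and 0.27, against 0.15 and 0.16 in control replicates 1 and 4. The controls enter every fold, and the choice took 17 genes without control replicate 2 and 15 without control replicate 3. Several results that rest on WT ARGFX are also given without B.

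The mutant limit removed most of the genes that met the other limits. Of the 10258 genes, 374 had a WT ARGFX mean at least 1.5 times control, which is 3.65%, and 853 had a LEUTX mean at least 1.5 times control, which is 8.32%. Both limits were met by 146 genes, which are 39.0% of the WT ARGFX list and 17.1% of the LEUTX list. Mutant ARGFX was at most 1.2 times control in 86% of the 10258 genes but in only 14 of the 146, or 9.59%. Another 83 of the 146 lay between 1.2 and 1.5 times control, and 49 were raised at least 1.5 times by the mutant as well. The median mutant fold over the 146 genes was 1.45, against 0.99 over all 10258. Without sample B, 591 genes (5.76%) passed the WT ARGFX limit and 202 passed both, of which 23 (11.4%) had a mutant mean of at most 1.2 times control, 128 lay between 1.2 and 1.5 and 51 at 1.5 or above, at a median mutant fold of 1.39. These shares use the same 4 control samples in every comparison, and so they are not independent of each other.

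**Figure D1:**
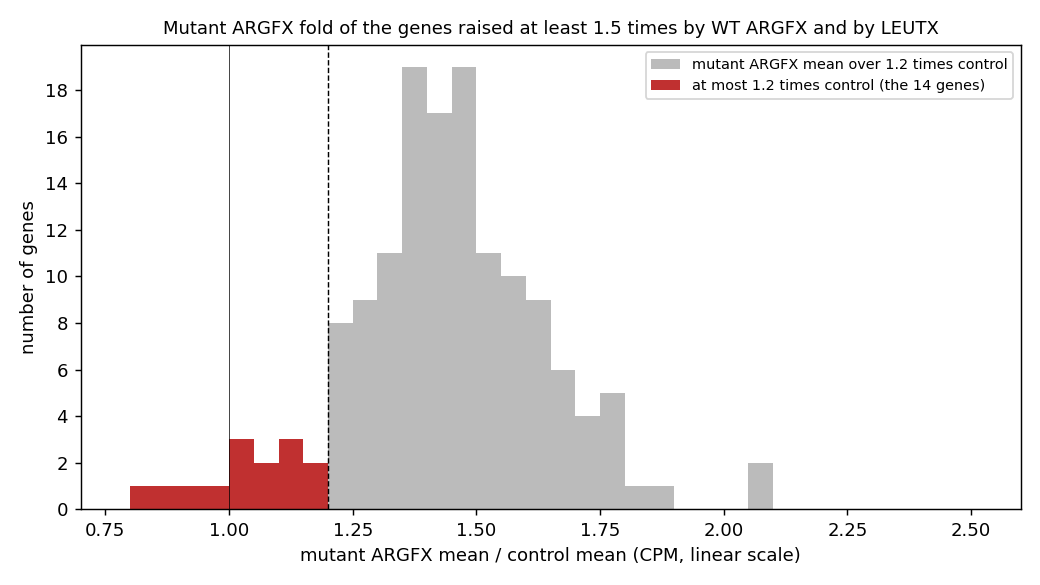
Number of genes (vertical axis) by the ratio of the mutant ARGFX mean to the control mean (horizontal axis, CPM, linear scale), for the 146 genes raised at least 1.5 times by both WT ARGFX and LEUTX. The 14 genes in red lie at or below the dashed limit of 1.2, and the bulk of the distribution lies above it around a median of 1.45.

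SERPINE2 was the gene with the largest LEUTX fold. It encodes protease nexin-1, a secreted inhibitor of thrombin, urokinase and plasmin that fibroblasts release into the matrix. In the control samples it was at 421, 468, 355 and 365 CPM, and in the mutant ARGFX samples at 337, 392 and 314 CPM. With WT ARGFX it was at 914, 735, 924 and 970 CPM, and with LEUTX at 3058, 3264, 3589 and 3741 CPM. Control and mutant samples overlapped, all WT ARGFX samples lay above both, and all LEUTX samples lay above every WT ARGFX sample. The mean was thus 2.20 times control with WT ARGFX, 0.86 times with mutant ARGFX and 8.48 times with LEUTX.

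Of the genes without a symbol, ENSBTAG00000001244.6 was nearest to SERPINE2 in its LEUTX fold. It was at 146, 138, 122 and 140 CPM in controls and at 142, 137 and 129 CPM with mutant ARGFX, which overlap. With WT ARGFX it was at 224, 204, 226 and 204 CPM, and with LEUTX at 1057, 1155, 1082 and 1076 CPM. The WT ARGFX mean was 1.57 times control and the LEUTX mean 8.01 times control, so the WT ARGFX mean was close to the limit of 1.5 while the LEUTX mean was far beyond it. ENSBTAG00000001497.6 had a similar order of groups, with means of 34.6 ± 2.4 CPM in controls (SD, n = 4), 54.7 ± 3.6 CPM with WT ARGFX (SD, n = 4), 40.6 ± 2.0 CPM with mutant ARGFX (SD, n = 3) and 128 ± 4.5 CPM with LEUTX (SD, n = 4). Its 3 mutant samples, from 38.8 to 42.8 CPM, lay above all controls, which were at 31.4 to 37.0 CPM.

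IL1RL1 and PRR5L are signalling genes. IL1RL1, also called ST2, is the receptor for the cytokine interleukin-33 and lies in a cluster of interleukin-1 receptor genes. It was at 107, 101, 99.6 and 101 CPM in controls, at 110, 105 and 106 CPM with mutant ARGFX, at 231, 210, 234 and 189 CPM with WT ARGFX and at 214, 189, 222 and 215 CPM with LEUTX. The WT ARGFX and LEUTX samples covered nearly the same range, and the control and mutant samples a lower one, from 99.6 to 110 CPM. The means were 2.11 and 2.05 times control with WT ARGFX and LEUTX.

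PRR5L, or Protor-2, is a protein that binds the kinase complex mTORC2. It was at 11.0, 9.27, 10.5 and 7.86 CPM in controls and at 10.3, 10.6 and 11.2 CPM with mutant ARGFX. With WT ARGFX it was at 22.7, 23.4, 24.1 and 24.0 CPM, and with LEUTX at 38.0, 38.5, 39.7 and 44.7 CPM. The WT ARGFX samples lay close together and clear of all other groups, at a mean of 2.44 times control. With LEUTX the mean was 4.17 times control.

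ASPA and ALDH1A1 encode metabolic enzymes. ASPA cleaves N-acetylaspartate into acetate and aspartate. It was at 6.60, 6.64, 5.10 and 8.48 CPM in controls, at 7.18, 6.77 and 6.59 CPM with mutant ARGFX, at 22.2, 18.3, 17.6 and 21.6 CPM with WT ARGFX and at 12.1, 10.5, 11.4 and 12.5 CPM with LEUTX. Here the order of the raised groups was the other way round, and every WT ARGFX sample lay above every LEUTX sample. ASPA had the largest WT ARGFX fold of the 14, 2.97 times control, against 1.73 times with LEUTX and 1.02 times with mutant ARGFX.

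ALDH1A1 oxidizes retinaldehyde to retinoic acid, the ligand of nuclear retinoic acid receptors. It was at 52.1, 53.7, 31.1 and 49.9 CPM in controls and at 47.7, 57.5 and 54.3 CPM with mutant ARGFX. With WT ARGFX it was at 85.0, 70.9, 107 and 89.2 CPM, and with LEUTX at 99.1, 87.6, 85.1 and 96.8 CPM. The raised groups overlapped each other and lay above all control and mutant samples. The low control replicate 3 lifts its folds, which were 1.89, 1.14 and 1.97 times control with WT ARGFX, mutant ARGFX and LEUTX. Without that sample the control mean was 51.9 CPM and not 46.7 CPM. ALDH1A1 belongs to a family of close paralogs, between which pseudoalignment may divide reads.

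PDLIM2 and MB21D2 complete the genes with a symbol. PDLIM2 is a PDZ and LIM domain protein found along actin stress fibres. It was at 16.6, 16.5, 16.3 and 16.5 CPM in controls, at 18.9, 18.4 and 19.0 CPM with mutant ARGFX, at 27.2, 27.4, 25.3 and 29.1 CPM with WT ARGFX and at 25.3, 28.8, 23.9 and 27.2 CPM with LEUTX. The controls were so close together that the mutant samples, at a mean of 1.14 times control, all lay above them. WT ARGFX and LEUTX samples overlapped, at 1.65 and 1.60 times control.

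MB21D2, a little studied member of the Mab-21 domain proteins, was at 6.35, 7.63, 5.59 and 5.63 CPM in controls and at 6.40, 8.34 and 5.63 CPM with mutant ARGFX. It was at 9.38, 10.4, 12.1 and 10.2 CPM with WT ARGFX and at 24.2, 23.5, 28.7 and 28.3 CPM with LEUTX. Mutant replicate 2 lay above every control and below every WT ARGFX sample. The means were 1.67, 1.08 and 4.15 times control with WT ARGFX, mutant ARGFX and LEUTX.

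The remaining 5 genes without a symbol had control means from 7.36 to 22.6 CPM. Their folds lay between 1.52 and 1.61 with WT ARGFX, 1.63 and 3.14 with LEUTX, and 0.84 and 1.18 with mutant ARGFX. In one of them a WT ARGFX sample, B at 8.25 CPM, fell below the highest control at 9.90 CPM. This was the only one of the 14 genes in which WT ARGFX and control samples overlapped.

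**Figure D2:**
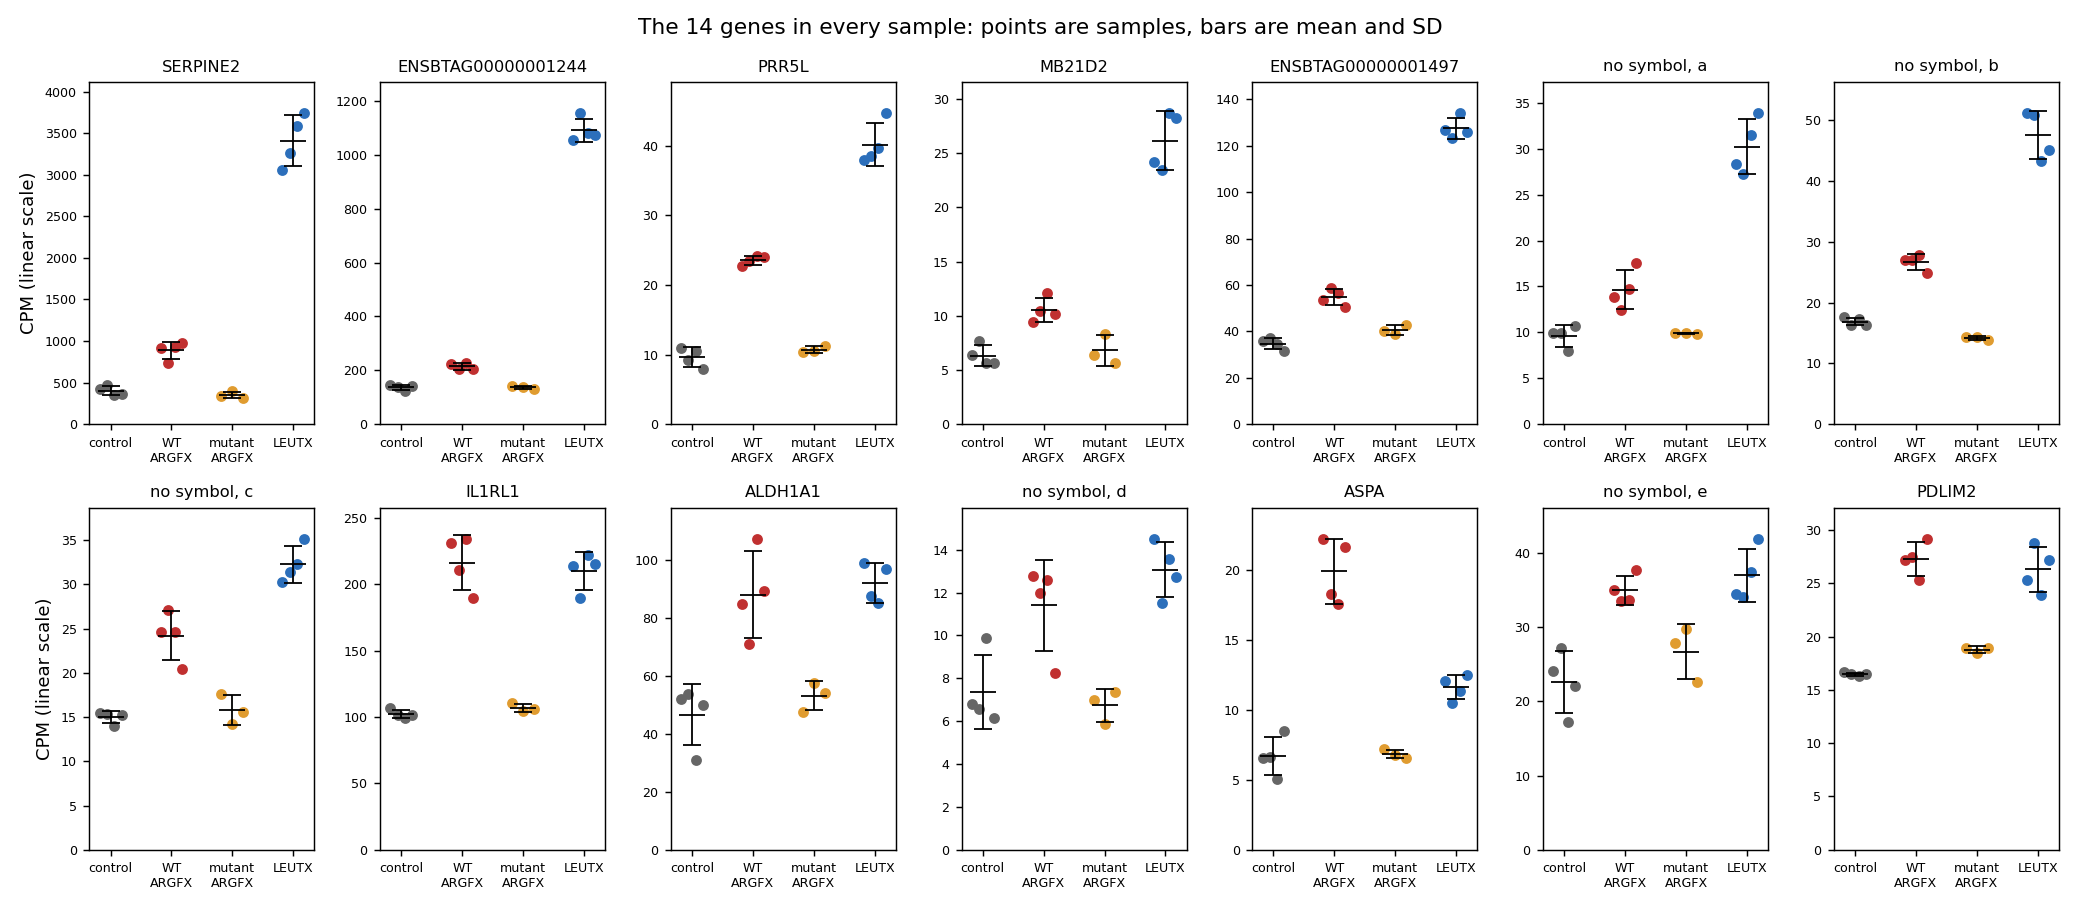
CPM (vertical axis, linear from 0, own scale per panel) of the 14 genes in the 4 control, 4 WT ARGFX, 3 mutant ARGFX and 4 LEUTX samples, with points for samples and bars for the mean and SD. In 8 panels all LEUTX samples lie above all WT ARGFX samples, and in the ASPA panel they lie below.

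The folds relative to control are a description, since they chose the genes. Over the 14 genes the WT ARGFX fold ranged from 1.52 to 2.97 with a median of 1.63, and the LEUTX fold from 1.60 to 8.48 with a median of 2.49. Over all 10258 genes the median folds were 0.97 and 0.91. The mutant fold ranged from 0.84 to 1.18 with a median of 1.05, and 4 of the 14 genes had a mutant mean below control. The WT ARGFX fold was over 2 in 4 genes, which were ASPA, PRR5L, SERPINE2 and IL1RL1, and under 1.7 in 9. The LEUTX fold was over 2 in 9 genes and over 4 in 4, which were SERPINE2, ENSBTAG00000001244.6, PRR5L and MB21D2.

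In edgeR's quasi-likelihood test, with a call at an adjusted p under 0.05 and a fold over 1.5, all 14 genes were called higher with WT ARGFX than control, beside 4.83% of the 10258 genes, and none lower, beside 6.68%. Without sample B, 13 were called higher, beside 6.05%, and none lower, beside 7.23%. All 14 were called higher with LEUTX than control, beside 10.2%. None was called higher with mutant ARGFX, beside 0.926%, and none lower, beside 2.72%. DESeq2 called none higher with mutant ARGFX either. At an unadjusted p under 0.05 the mutant was higher in 1 of the 14 genes, beside 13.5% of all, and lower in 1, beside 15.5%. These calls restate the limits by which the genes were taken. The intervals of the mutant difference were not narrow for every gene. For SERPINE2 the log2 fold change of mutant ARGFX against control was -0.19 ± 0.15 (SE), with a 95% interval of -0.52 to 0.13, and for IL1RL1 it was 0.08 ± 0.08 (SE), with an interval of -0.09 to 0.26. For MB21D2 the interval ran from -0.23 to 0.47 and for ALDH1A1 from -0.18 to 0.57. For ENSBTAG00000001497.6 the whole interval lay above no change, at 0.08 to 0.41. For a gene without a symbol it lay below no change, at -0.41 to -0.05.

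Every WT ARGFX sample lay above every control sample in 13 of the 14 genes, beside 10.2% of all, and in all 14 without sample B, beside 19.3%. Every LEUTX sample lay above every control sample in 14, beside 16.4%. Every mutant sample lay above every control sample in 2 genes, PDLIM2 and ENSBTAG00000001497.6, beside 10.3% of all. Every control sample lay above every mutant sample in 1 gene without a symbol, beside 17.8%. Mutant and control samples thus overlapped in the other 11.

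WT ARGFX was also set directly against mutant ARGFX. Both means entered the choice, so these values are a description too. Every WT ARGFX sample lay above every mutant sample in all 14 genes, beside 4.39% of the 10258, and every LEUTX sample did so as well, beside 19.9%. Without sample B the WT ARGFX samples did so in all 14 too, beside 11.1% of all genes. The log2 fold change ranged from 0.43 to 1.59 with a median of 0.73, against 0.01 over all genes. Of the 28 genes called higher with WT than with mutant ARGFX in edgeR's test, which are 0.273% of the 10258, 11 were among the 14. ASPA had the largest difference at 1.59 ± 0.16 (SE), followed by SERPINE2 at 1.39 ± 0.16, PRR5L at 1.18 ± 0.10 and IL1RL1 at 1.05 ± 0.09. Of the 3 genes not called, PDLIM2 was at 0.58 ± 0.10, just under the fold, and was called in 6 of 13 alternatives. ENSBTAG00000001497.6, at 0.47 ± 0.08, was called in 0 of 13, its fold staying under 1.5 in each. The other gene had no symbol. It was at 0.43 ± 0.16 with an edgeR adjusted p of 0.269, and was also called in 0 of 13. MB21D2 at 0.67 ± 0.16 and ALDH1A1 at 0.77 ± 0.18 were called with adjusted p-values of 0.040 and 0.0334 in edgeR, and both lost the call in 8 of 13 alternatives. A gene without a symbol, at 0.61 ± 0.15 with an edgeR adjusted p of 0.0402, kept the call in only 4 of 13. Without sample B, 8 of the 14 genes were called, beside 0.283% of all genes, and the log2 fold change was 1.503 ± 0.16 (SE) for ASPA, 1.30 ± 0.15 for SERPINE2, 1.13 ± 0.10 for PRR5L and 1.07 ± 0.08 for IL1RL1.

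**Figure D3:**
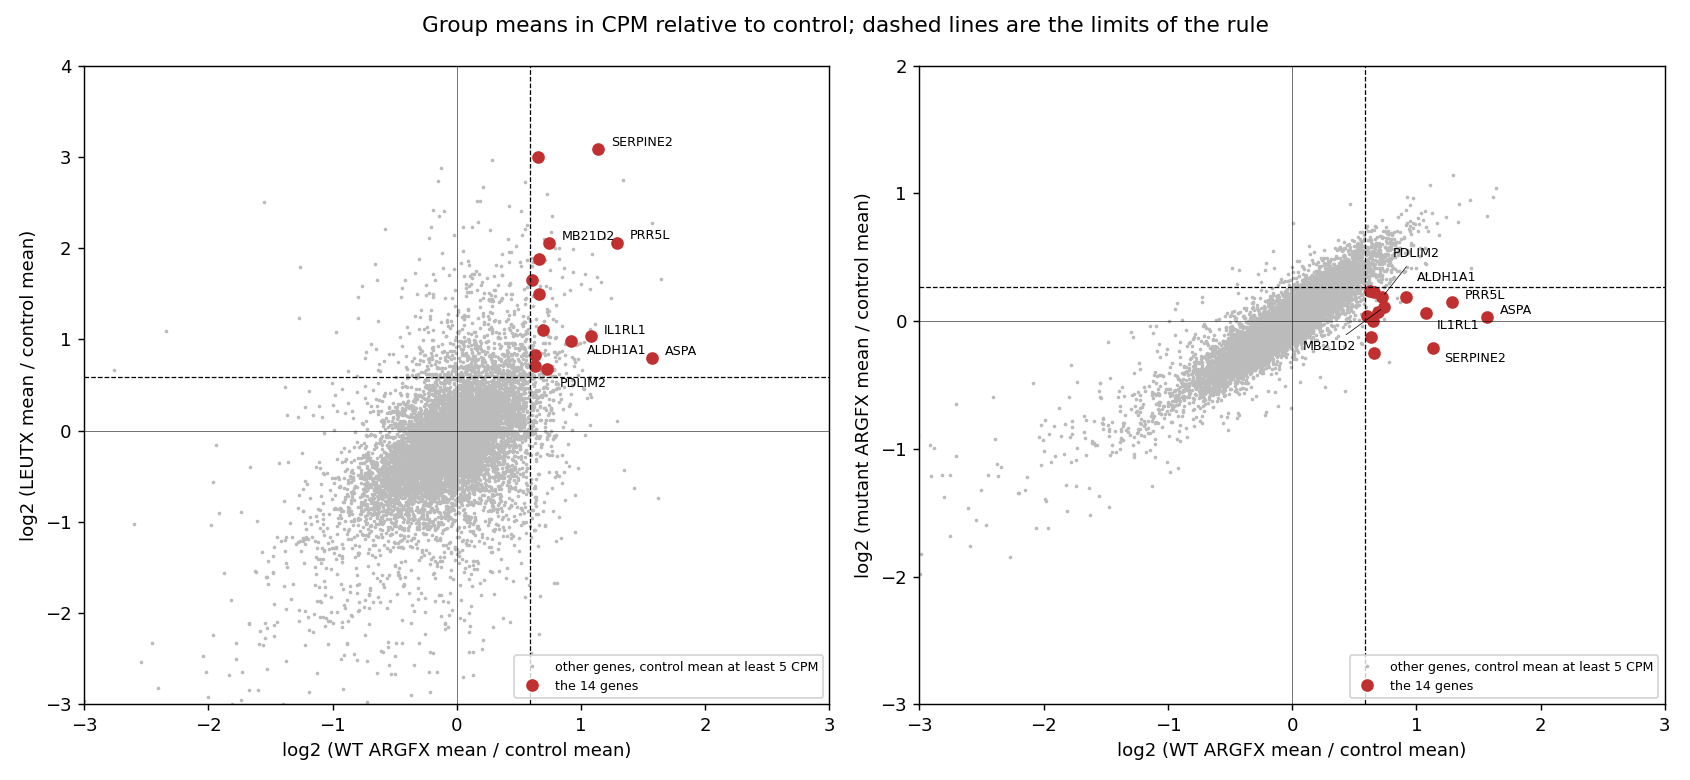
Log2 ratio of the WT ARGFX mean to the control mean (horizontal axes) against that of LEUTX (left) and mutant ARGFX (right), for the 10258 genes with a control mean of at least 5 CPM, with the 14 genes in red and the limits of the choice as dashed lines. Of these genes, 116 lie outside the axes on the left and 52 on the right. On the right the 14 genes lie below the dashed mutant limit, between 0.84 and 1.18 times control.

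The choice set no limit on the difference between LEUTX and WT ARGFX. Both means entered it, however, each with a floor relative to the same control samples and the WT ARGFX samples in a choice that also held the mutant down, so the calls and intervals of this comparison describe the 14 genes and are no test independent of the choice. The comparison asks whether the raised genes responded alike to both homeobox genes. In edgeR's test, 7 of the 14 genes were called higher with LEUTX, beside 7.73% of the 10258 genes, none of which had to pass a floor, and 1 was called lower, beside 10.9%. The median log2 fold change was 0.63 over the 14 genes and -0.03 over all. More of the 10258 genes passed the LEUTX floor than the WT ARGFX floor, and the difference between these medians was not tested.

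The largest differences in favour of LEUTX were in ENSBTAG00000001244.6, at a log2 fold change of 2.39 ± 0.10 (SE, 95% interval 2.18 to 2.59), SERPINE2, at 1.98 ± 0.15 (1.67 to 2.28), and MB21D2, at 1.35 ± 0.15 (1.04 to 1.66). In these genes the LEUTX mean was between 2.49 and 5.10 times the WT ARGFX mean. ENSBTAG00000001497.6 followed at 1.26 ± 0.07 and PRR5L at 0.81 ± 0.09, and the other 2 genes called had no symbol. In all 7, and in 1 further gene that did not reach the fold, every LEUTX sample lay above every WT ARGFX sample, beside 16.4% of all genes.

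ASPA was the only one of the 14 genes called lower with LEUTX than WT ARGFX, at a log2 fold change of -0.75 ± 0.14 (SE, 95% interval -1.05 to -0.45). Its LEUTX mean was 0.58 times its WT ARGFX mean. The groups did not overlap, as in 22.2% of the 10258 genes in this direction.

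For IL1RL1, PDLIM2 and ALDH1A1 no difference between LEUTX and WT ARGFX was called. The intervals bound the difference closely for IL1RL1, at 0.00 ± 0.08 (SE, 95% interval -0.17 to 0.16), and for PDLIM2, at -0.02 ± 0.09 (-0.21 to 0.17). For ALDH1A1, at 0.10 ± 0.17 (-0.25 to 0.45), a wider range remained. Those of IL1RL1, PDLIM2 and ALDH1A1 all lay inside a fold of 1.5 in either direction. Among the genes with a symbol, the order of the raised groups thus differed, with SERPINE2, MB21D2 and PRR5L higher with LEUTX, ASPA higher with WT ARGFX, and the other 3 at overlapping levels.

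**Figure D4:**
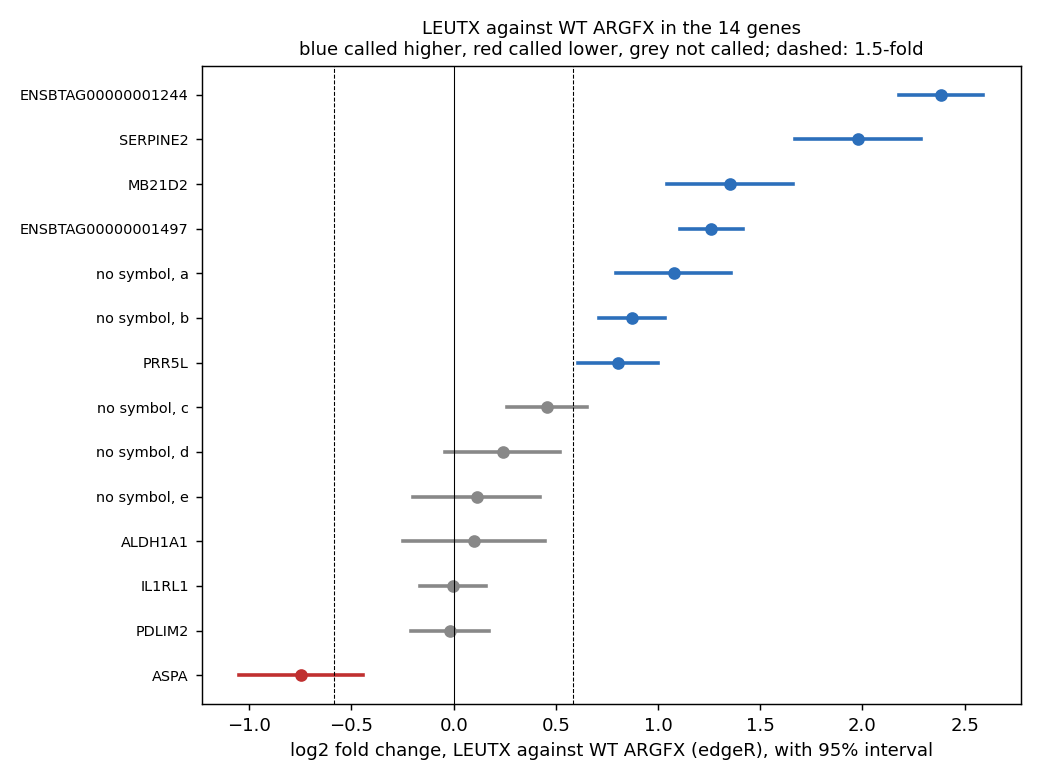
Log2 fold change of LEUTX against WT ARGFX from edgeR (horizontal axis, points) with its 95% interval (lines) for the 14 genes, ordered by value, with dashed lines at a fold of 1.5 in either direction. The 7 genes called higher lie on the right between PRR5L at 0.81 and ENSBTAG00000001244.6 at 2.39, and ASPA lies alone on the left at -0.75.

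The comparison of LEUTX with WT ARGFX did not rest on sample B. Without it the log2 fold change was 2.08 for SERPINE2, 1.39 for MB21D2, 0.87 for PRR5L, -0.01 for IL1RL1, 0.07 for PDLIM2, 0.16 for ALDH1A1 and -0.65 for ASPA, and 7 genes were called higher, beside 8.96% of all genes, and 1 lower, beside 11.6%. Against control, SERPINE2, PRR5L, MB21D2, IL1RL1, ALDH1A1, ASPA and PDLIM2 were at 2.13, 2.43, 1.69, 2.20, 1.88, 2.89 and 1.62 times control with WT ARGFX when B was left out. Over the 14 genes the WT ARGFX fold then ranged from 1.42 to 2.89, and 1 gene, without a symbol, was under the limit of 1.5.

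Neighbouring sets of genes show how the limits act. Among the 83 genes raised by WT ARGFX and LEUTX with a mutant fold between 1.2 and 1.5, the median folds were 1.63 with WT ARGFX and 1.93 with LEUTX, and 27.7% were called higher with LEUTX than WT ARGFX and 0% lower. Among the 49 genes raised by all constructs the medians were 1.80 and 2.03, and 26.5% were called higher with LEUTX and 0% lower. The corresponding values of the 14 genes were 1.63, 2.49, 50% and 7.14%. Without sample B the shares called higher with LEUTX were 30.1% of the 83 and 30.6% of the 49 genes, and 50% of the 14. The difference between these shares was not tested.

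Without the LEUTX limit, 35 of the 374 genes raised by WT ARGFX had a mutant mean of at most 1.2 times control, or 9.36%. Of the 21 with a LEUTX mean under 1.5 times control, 7 were called lower with LEUTX in edgeR's test, beside 13.3% of the 10258 genes. Without sample B the 35 and 21 genes became 52 and 29. FST, which encodes the activin inhibitor follistatin, was among them at 1.72 times control with WT ARGFX, 0.80 times with mutant ARGFX and 0.32 times with LEUTX. POSTN, a matrix protein of the periosteum and skin, was at 1.83, 1.11 and 0.59 times control in the same order. FMOD, a small proteoglycan that binds collagen, was at 1.80, 1.14 and 0.83 times control. CDC42EP5, an effector of the GTPase CDC42, was at 1.65, 1.09 and 0.84 times control. With LEUTX against control, edgeR called FST and POSTN lower, at log2 fold changes of -1.57 and -0.67 (adjusted p 1.9e-09 and 8.04e-05). FMOD and CDC42EP5 were not called, at -0.169 and -0.175 (adjusted p 0.157 and 0.535). Without sample B the WT ARGFX folds were 1.73 for FST, 1.90 for POSTN, 1.85 for FMOD and 1.49 for CDC42EP5, so that the last fell under the limit.

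The genes with a symbol were set beside 10 lists of genes by function, and 6 of these 7 were in a list. MB21D2 was in none, and the 7 genes without a symbol could not be placed. Every list member with an identifier came from the study's own sheet of genes upregulated by WT ARGFX, which was made on these samples, so the lists are no independent evidence that WT ARGFX raises them. The same 4 control samples also enter the comparisons with LEUTX and mutant ARGFX, so a higher level there is not independent of that sheet either. The counts below are of list genes with a control mean of at least 5 CPM. Among the 10258 genes at that level, 10.2% were called higher and 13.3% lower with LEUTX than control, 0.926% higher with mutant ARGFX than control, and 0.273% higher with WT than mutant ARGFX. The signalling list, with IL1RL1 and PRR5L, had 19 such genes, of which 10 were called higher and 1 lower with LEUTX than control, 8 higher with mutant ARGFX, and 5 higher with WT than mutant ARGFX. Of the 22 genes of a mixed metabolism list, with ASPA and ALDH1A1, 15 were called higher and 1 lower with LEUTX, 9 higher with mutant ARGFX and 2 higher with WT than mutant ARGFX. Of the 23 actin and contraction genes, the list of PDLIM2, 15 were called higher and none lower with LEUTX, 7 higher with mutant ARGFX and 2 higher with WT than mutant ARGFX. Of the 4 extracellular proteases and inhibitors, SERPINE2 among them, 1 was called higher and 1 lower with LEUTX, 1 higher with mutant ARGFX and 1 higher with WT than mutant ARGFX.

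The other lists held none of the 7 genes with a symbol. Among 22 collagens and matrix genes, 8 were called higher and 4 lower with LEUTX and 8 higher with mutant ARGFX. Among 11 cell division genes 2 were called higher and 3 lower with LEUTX, and none higher with mutant ARGFX. Among 9 transcription and chromatin genes, 4 were called higher and none lower with LEUTX and 3 higher with mutant ARGFX. The 9 microtubule, 8 membrane lipid and 4 redox genes had 6, 5 and 3 genes called higher with LEUTX, 1 redox gene called lower, and 2, 6 and 0 genes called higher with mutant ARGFX. With WT than with mutant ARGFX, 4 matrix genes were called higher, and none of the cell division, transcription and chromatin, microtubule, membrane lipid or redox genes. The median log2 fold change with LEUTX was 0.81 in the signalling, 0.87 in the metabolism, 0.90 in the actin and -0.07 in the protease list. It was 0.38 in the matrix, -0.18 in the cell division and 0.35 in the transcription list. In the microtubule, membrane lipid and redox lists it was 1.22, 0.84 and 0.96, against -0.04 over all genes at that level. Those genes were taken by their mean in the same control samples, but not by a rise with WT ARGFX.

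Some genes were close to a limit. Just inside the mutant limit lay a gene without a symbol at 1.18 times control, ENSBTAG00000001497.6 at 1.17 times and PDLIM2 at 1.14 times. Just outside it lay genes without a symbol at 1.21 and 1.23 times control. EPHX1, an epoxide hydrolase, was between them at 1.22 times control, with WT ARGFX and LEUTX folds of 1.69 and 4.52. Near the WT ARGFX limit the nearest genes inside were at 1.52, 1.54 and 1.55 times control and those outside at 1.49, 1.48 and 1.47 times, all without a symbol. Near the LEUTX limit PDLIM2 was inside at 1.60 times control and ASPA at 1.73 times. Between them, at 1.63 times, was the gene without a symbol that was at 1.18 times control with mutant ARGFX. The nearest gene outside was at 1.36 times.

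When each of the 15 samples was left out in turn and the choice repeated, 11 of the 14 genes were taken every time, among them all 7 with a symbol and both genes given by identifier. The 3 not taken every time had no symbol, and the gene near both the mutant and the LEUTX limit was one of them. Each left out sample then gave a value that had not entered the choice, although it was compared with group means that had. In each left out LEUTX sample, 13 or 14 of the 14 genes chosen without it were at least 1.5 times the control mean, beside 8.21% to 9.52% of all genes. In the left out WT ARGFX samples this held for 11 of 17, 11 of 16, 12 of 14 and, in sample B, 8 of 23 genes, beside 3.78% to 7.31% of all genes. In the left out mutant samples 13 of 15, 11 of 16 and 12 of 20 genes were at most 1.2 times control, beside 77.6% to 90.3% of all genes. In the left out control samples the WT ARGFX mean was at least 1.5 times that sample in 11 of 19, 11 of 17, 11 of 15 and 15 of 18 genes, beside 3.35% to 12.7% of all genes. A left out mutant sample met its limit in 86.7%, 68.8% and 60% of the chosen genes, beside 87%, 90.3% and 77.6% of all genes. This was less often than over all genes for mutant replicates 2 and 3. Left out WT ARGFX and LEUTX samples met theirs in a larger share of the chosen genes than of all genes. The chosen genes had passed the same limits in the other samples, and the control mean in these ratios also chose them. All genes had to pass no fold limit, so their shares are no close match for any group. The shares of the chosen genes are therefore a description and no test of the choice.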

How the data were processed

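Expected counts of 15 BFF samples were used. A further mutant ARGFX sample, which the authors excluded, was not analysed here. The authors used FastQC, MultiQC and Trimmomatic, quantified reads with kallisto 0.46.1 on ARS-UCD1.2 with ETCHbox sequences added, and deposited gene-level expected counts from tximport, without normalization. The expected counts were rounded and tested with edgeR 4.0.16 in R 4.3.3 (its low-count filter, TMM, 1 quasi-likelihood fit to all samples, Benjamini-Hochberg adjustment over 14264 genes), and the procedure was tested on simulated data. CPM values use column sums. The SE of a log2 fold change is its size over the square root of F. Replicates share 1 fetus, so p-values measure the spread between transfections. Depth and intervals cover these samples only.

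The genes, lists and tests were chosen with earlier results of these data known. Named genes are those with a symbol in the sheet used, the genes nearest each limit, and at most 2 identifiers without a symbol. The alternatives were DESeq2 1.42.0, its size factors, no filter, fits to 2 groups, a replicate block, no fold threshold, medians, other scalings and each sample left out. Comparisons with neighbouring sets, list counts over genes with a control mean of at least 5 CPM and further values without sample B were added after seeing the data. Sequences and promoter motifs were not analysed here.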

Additional observations from a re-analysis of the deposited data

Results flagged for a closer look

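ALDH1A1 in control replicate 3 lay far from the other control samples, at 31.05 CPM against 49.91 to 53.69 CPM. No other sample lay so far out in 27 groups of 4 samples, the 7 genes with a symbol and both genes given by identifier in each of the 3 groups of that size, where chance gives about 1.35 such samples. Without this sample the log2 fold change of ALDH1A1 was 0.79 with WT ARGFX (edgeR adjusted p = 0.000239), 0.89 with LEUTX (adjusted p = 2.52e-05) and 0.02 with mutant ARGFX, against 0.97, 1.06 and 0.20 with it.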

How the results depend on the processing

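The number of genes chosen depended on the scaling and on 1 sample. It was 14 on column sums, 23 on TMM-scaled library sizes and 21 with DESeq2's size factors, both of which kept all 14, and 19 with medians, which kept 12. Leaving out each sample in turn gave 14 to 23 genes, with 23 without sample B of the WT ARGFX group, of which 13 were shared. Calls among the 14 genes ranged from 12 (without control replicate 3, and with the block below) to 14 for WT ARGFX against control and from 8 to 13 for WT against mutant ARGFX. LEUTX against control stayed at 14, mutant ARGFX at 0, and LEUTX against WT ARGFX at 7 or 8 higher and 1 lower. The lowest WT against mutant count, 8, came without sample B, without mutant replicate 2 or 3, and on the 13 numbered samples. No called value of a named gene changed sign. DESeq2's size factors moved the median log2 ratio of LEUTX to control over all genes by 0.115.

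Replicate numbers did not pair the samples, since deviations of samples with the same number had a mean correlation of 0.01 over 16 pairs, against -0.005 over 46 pairs with different numbers. With the replicate block, over the 13 numbered samples, the calls were 12 for WT ARGFX, 14 for LEUTX, 0 for mutant ARGFX, 8 for WT against mutant ARGFX, and 7 higher and 1 lower for LEUTX against WT ARGFX. Without the block the same samples gave 13, 14, 0, 8, 7 and 1.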
